A study of Mus musculus with 40 samples.

Results

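Transcripts of 7 genes were followed through 40 mouse RNA sequencing libraries: Il2ra, Il2rb and Il2rg, which encode the chains of the interleukin 2 receptor, and Cd69, Icos, Cd28 and Tnfrsf9, which encode receptors of T cell activation and costimulation. They were taken by symbol, and all 7 were found once each among the 21347 genes kept from the deposited table. All 7 also passed the filter on low values (a value of at least 1 in at least 3 libraries), 5 of them only through the co-cultures, and 14701 genes passed it in all. In the co-cultures, 4T1 cells, a mouse mammary carcinoma line of BALB/c origin, were grown with splenic T cells of C57Bl6 mice on wells coated with collagen I (3 libraries), collagen IV (4), fibronectin (4) or vitronectin (3), or on uncoated polystyrene (4). In the other arm 4T1 cells were grown alone on collagen I (4), collagen IV (4), fibronectin (5), vitronectin (4) and uncoated polystyrene (5). Coats were made at 250 µg/ml, carcinoma cells were seeded at 10k and T cells at 80k per cm2, and co-culture ran for 24 h. Interleukin 2 at 30 U/mL was added to both arms, so no group shows these genes without the cytokine. The wells come from 5 experiments, of which experiments 2, 4 and 5 hold a co-culture on every substrate, experiment 1 holds co-cultures on fibronectin and uncoated plastic, and experiment 3 holds 1, on collagen IV. Free and attached cells were pooled before RNA extraction, so a co-culture library mixes RNA of carcinoma cells and T cells, and fewer T cells cannot be told apart from less of a transcript per T cell.

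The interleukin 2 receptor is built from an alpha chain (Il2ra, CD25), which raises affinity for the cytokine, a beta chain (Il2rb) and the common gamma chain (Il2rg), and the last of these also serves the receptors for interleukins 4, 7, 9, 15 and 21. Beta and gamma chains signal through the kinases Jak1 and Jak3 to the transcription factor STAT5. Resting T cells carry little alpha chain, and antigen receptor signalling together with interleukin 2 raises it, while regulatory T cells carry it constantly. Cd69 is a C-type lectin that appears early after activation. Cd28 is the costimulatory receptor of resting T cells for CD80 and CD86, Icos is its relative induced on activation, and Tnfrsf9 (4-1BB, CD137) is an activation-induced receptor of the tumour necrosis factor receptor family.

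In GENCODE vM21 on GRCm38, Il2ra lies at chr2:11642807-11693193 (plus strand), Il2rb at chr15:78479256-78495271 (minus), Il2rg at chrX:101264378-101268255 (minus), Cd69 at chr6:129267325-129275436 (minus), Cd28 at chr1:60716800-60773359 (plus), Icos at chr1:60977927-61000320 (plus) and Tnfrsf9 at chr4:150914562-150946102 (plus). Of Il2rg, 728 exonic bases are shared with Gm20489 on the same strand, so its reads may be split there by the counting. The other 6 genes share no exonic base with another gene in that annotation.

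Promoters were read from RefSeq (GRCm38.p6) for 3 of the 7 genes, to show which letters for factors engaged by T cell activation and interleukin 2 stand before their starts; Il2rb, Cd69, Icos and Cd28 were not matched. The 250 bases before each start were searched on both strands for AP-1 (TGANTCA), NF-kB (GGGNNNNNCC), STAT (TTCNNNGAA), ETS (CCGGAAG) and CRE (TGACGTCA) motifs, and matches are in capitals. The sequences of Il2ra (chr2:11642542-11642791, plus strand), of the downstream start of Tnfrsf9 (chr4:150927749-150927998, plus strand) and of Il2rg (chrX:101268256-101268505, minus strand) are shown 5′ to 3′, because they hold the matches described.
Il2ra: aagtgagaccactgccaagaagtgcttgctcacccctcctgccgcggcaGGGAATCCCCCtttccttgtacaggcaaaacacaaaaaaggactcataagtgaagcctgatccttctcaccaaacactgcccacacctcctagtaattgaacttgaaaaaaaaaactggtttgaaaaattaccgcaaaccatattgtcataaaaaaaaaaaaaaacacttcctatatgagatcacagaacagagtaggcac
Tnfrsf9: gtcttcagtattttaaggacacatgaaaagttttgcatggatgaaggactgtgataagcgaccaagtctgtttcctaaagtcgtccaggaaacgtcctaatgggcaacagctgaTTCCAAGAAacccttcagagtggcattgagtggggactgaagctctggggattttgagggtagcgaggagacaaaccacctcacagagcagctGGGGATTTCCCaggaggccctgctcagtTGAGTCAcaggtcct
Il2rg: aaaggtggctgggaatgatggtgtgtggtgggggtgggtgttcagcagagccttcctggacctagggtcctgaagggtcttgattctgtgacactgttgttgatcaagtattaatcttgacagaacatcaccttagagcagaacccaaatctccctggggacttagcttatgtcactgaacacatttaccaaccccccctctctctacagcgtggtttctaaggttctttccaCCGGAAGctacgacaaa
Il2ra held overlapping NF-kB matches from position -201 to -191 relative to its start. The downstream start of Tnfrsf9 held a STAT match (-136 to -128), overlapping NF-kB matches (-43 to -33) and an AP-1 match (-15 to -9), while its upstream start held none of the motifs. Il2rg held an ETS match (-17 to -11). Of 32851 promoters in the table, 45.8% held the loose NF-kB motif, 7.02% the STAT, 6.75% the AP-1, and 6.91% the ETS motif, and 508 held the CRE motif, which none of the 4 member promoters had. The matches describe these windows only.

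The deposited value of a gene is its number of reads over the scaled size of the library, given below as reads per M. The libraries held 18.95 to 47.73 M reads assigned to genes, apart from the collagen IV co-culture of experiment 5 with 239.13 M. A count of 0 allows a level of up to 0.0124 to 0.158 per M (3 reads), which covers counting error only. The labels call the 5 experiments biological replicates and do not name the T cell donors, and wells of 1 experiment share cells. T cell marker genes (12 genes, summed) ranged from 10.6 to 1807 per M in co-cultures and from 1.09 to 2.63 per M in 4T1 alone. Among co-cultures the sums were 577 to 1807 per M in experiment 4, 117 to 182 in experiment 1, 20.1 to 32.3 in experiment 2, 13.01 in experiment 3 and 10.6 to 23.9 in experiment 5. The T cell label was checked by the marker Cd3e, a subunit of the T cell receptor complex, which was found in every co-culture (lowest 0.417 per M) and stood at 0 in 17 of 22 libraries of 4T1 alone. The carcinoma label was likewise met, since 10 epithelial genes summed to 1592 to 3498 per M in co-culture and 2603 to 3742 per M in 4T1 alone.

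All 3 receptor chains were higher with T cells. Il2ra had a lowest value of 0.183, a median of 0.953 and a highest value of 23.1 per M in the 18 co-cultures, against 0, 0 and 0.0332 per M in the 22 libraries of 4T1 alone, 17 of which held no read of it. Every co-culture was above every library of 4T1 alone. On the log2(value + 1) scale, averaged over the 5 substrates, Il2ra rose by 1.525 ± 0.324 (SE; limma adjusted p = 0.00365). Il2rb had a lowest value of 1.24, a median of 2.36 and a highest value of 83.2 per M in co-culture, against 0.0589, 0.179 and 0.364 per M in 4T1 alone, and these groups did not overlap either. Its rise of 2.48 ± 0.40 (limma adjusted p = 0.000395) stood beside 2.40 ± 0.48 for Cd3e (limma adjusted p = 0.00239). Il2rg, the shared chain, was present without T cells: it had a lowest value of 2.46, a median of 3.72 and a highest value of 67.7 per M in co-culture, against 1.68, 2.64 and 3.51 per M in 4T1 alone. Those ranges overlapped, with 11 of 18 co-cultures above every library of 4T1 alone, and the log2 difference was 1.08 ± 0.31 (limma adjusted p = 0.0163).

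The activation and costimulatory receptors were higher with T cells as well, from very different levels. Cd28 had a lowest value of 0.211, a median of 0.886 and a highest value of 96.1 per M in co-culture, against 0, 0.066 and 0.24 per M in 4T1 alone. Only the collagen IV co-culture of experiment 3 fell within the range of 4T1 alone, and the log2 rise was 2.23 ± 0.51 (limma adjusted p = 0.00573). Icos had a lowest value of 0.184, a median of 0.55 and a highest value of 28.4 per M in co-culture, against 0, 0 and 0.0777 per M in 4T1 alone, with no overlap. It rose by 1.51 ± 0.36 (limma adjusted p = 0.00766). Tnfrsf9 had a lowest value of 0.678, a median of 1.43 and a highest value of 20.6 per M in co-culture, against 0.205, 0.633 and 1.19 per M in 4T1 alone, where every library held reads of it. In 13 of 18 co-cultures it was above every library of 4T1 alone, and it rose by 1.15 ± 0.27 (limma adjusted p = 0.00658). Cd69 was the sparsest of the 7, with a lowest value of 0, a median of 0.302 and a highest value of 5.00 per M in co-culture, against 0, 0 and 0.0809 per M in 4T1 alone. It was at 0 in 3 of 18 co-cultures and in 16 of 22 libraries of 4T1 alone, and it rose by 0.65 ± 0.18 (limma adjusted p = 0.0124).

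**Figure D1:**
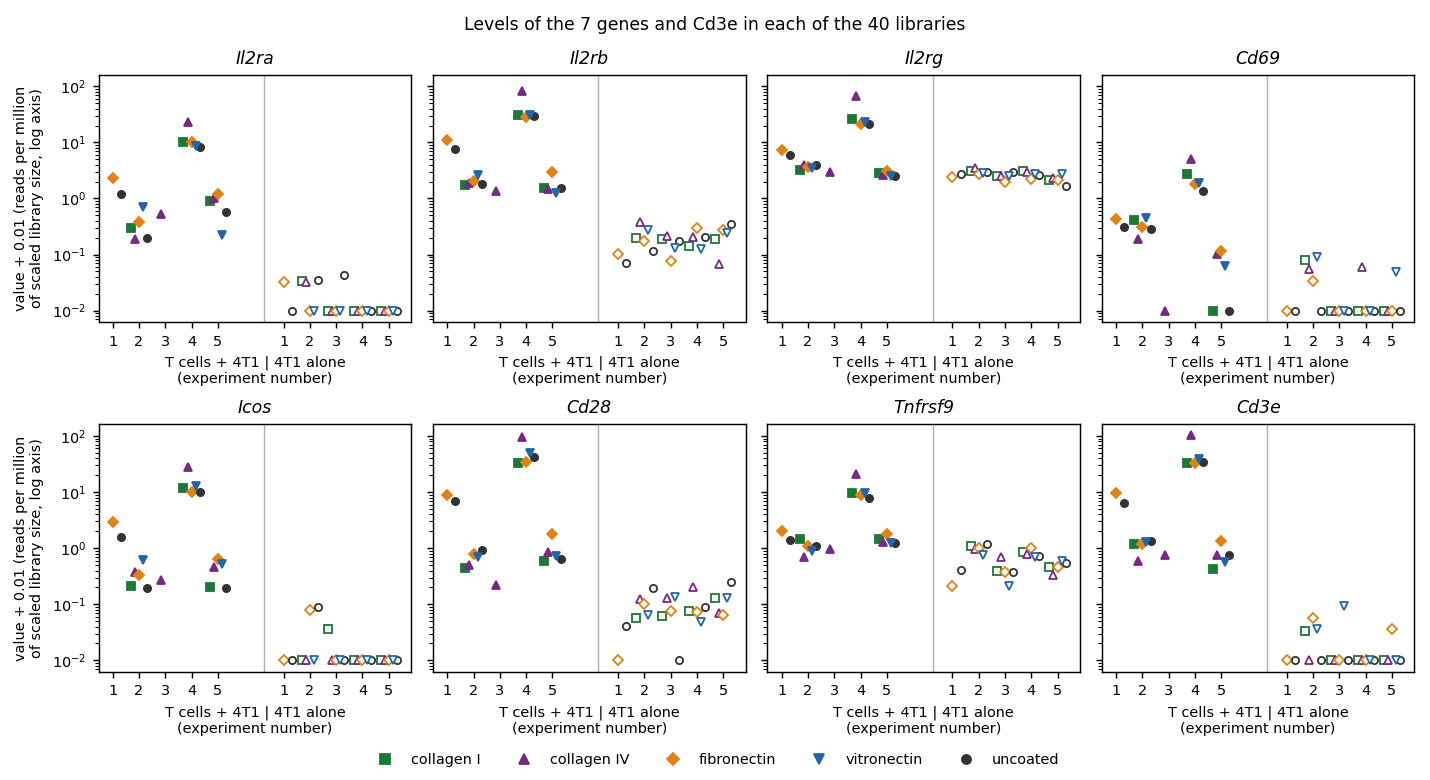
Level of each of the 7 genes and of Cd3e in all 40 libraries by experiment number, co-cultures on the left of each panel (filled) and 4T1 alone on the right (open), on a log axis of value + 0.01 in reads per M of scaled library size, so that 0 sits at 0.01. The highest points are the co-cultures of experiment 4, and Il2rg and Tnfrsf9 are well above 0 in 4T1 alone.

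All 7 genes passed in the upward direction, where 13.1% of all genes tested did so (25.2% passed in either direction, 1922 higher and 1788 lower; with libraries scaled to carcinoma epithelial genes, 2537 higher and 1 lower, and after quantile normalisation, 1504 higher and 3076 lower, the 7 still passing in both). Il2ra, Il2rb, Cd69, Icos and Cd28 passed the filter on low values only through the co-cultures, where they were high, and 72.3% of the 925 genes of which this is true were called higher, so nothing is read from the calls of these 5, nor from the counts over pairs and groups that follow. Il2rg and Tnfrsf9 passed the filter in 4T1 alone as well. For 3 of the 7 (Il2ra, Il2rb, Icos) the lowest co-culture was above the highest library of 4T1 alone, where 1.17% of all genes showed this. In pairs of wells of the same experiment and substrate, Il2ra, Il2rb, Icos and Cd28 were higher with T cells in 18 of 18 pairs (2.12% of all genes tested), Il2rg in 17, Tnfrsf9 in 16 and Cd69 in 15, the other 3 pairs of Cd69 having equal values. The mean of pairs was higher with T cells in each of the 5 experiments for 6 of the 7 genes (9.22% of all genes), Cd69 being at 0 in both wells of experiment 3. With 5 experiments an exact two-sided sign-flip test cannot go below 0.0625, which it reached for these 6 genes, and it gave 0.125 for Cd69. Adding a term for the experiment left 7 of 7 passing, with log2 differences of 0.62 ± 0.15 (Cd69) to 2.42 ± 0.32 (Il2rb).

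The differences were of very unequal size over experiments. For Cd28 the mean log2 rise over pairs was 5.46 in experiment 4 and 3.11 in experiment 1, whereas experiments 5, 2 and 3 gave 0.74, 0.59 and 0.12. Without experiment 4, Il2rb rose by 1.49 (limma adjusted p = 6.05e-06), Il2ra by 0.70 (0.000247), Cd28 by 0.95 (0.00757), Icos by 0.58 (0.0063), Tnfrsf9 by 0.53 (0.0019) and Cd69 by 0.23 (0.0286), so 6 of 7 still passed, while Il2rg had 0.32 (limma adjusted p = 0.11). The collagen IV co-culture of experiment 4 was the highest library for each of the 7 genes, and T cell markers summed to 1807 per M in it. With any 1 of the 40 libraries left out, 7 of 7 genes still passed. As above, nothing is read from such calls for Il2ra, Il2rb, Cd69, Icos and Cd28, which passed the filter only through the co-cultures.

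**Figure D2:**
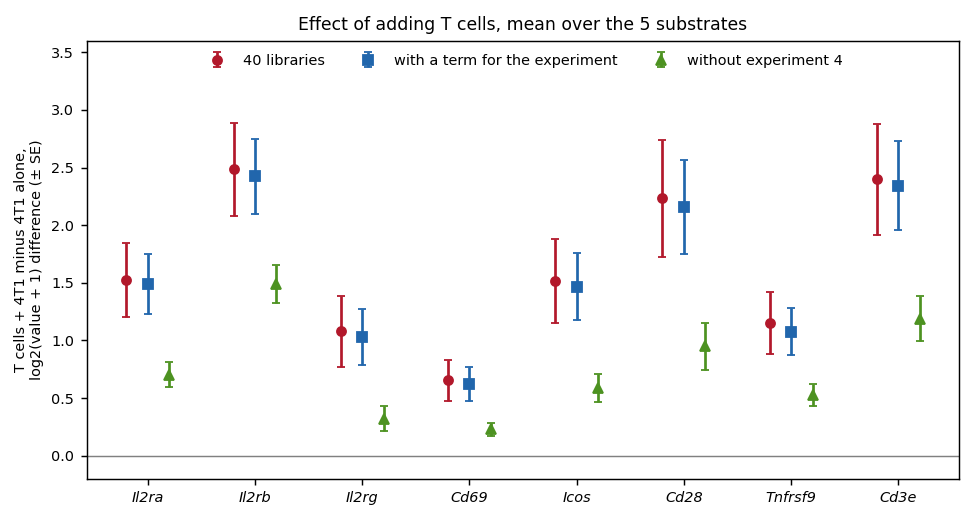
Log2(value + 1) difference of co-culture minus 4T1 alone, averaged over the 5 substrates (points; bars are SE), for each of the 7 genes and Cd3e, over 40 libraries, with a term for the experiment, and without experiment 4. Leaving out experiment 4 brings the difference of Il2rb to 1.49 and that of Il2rg to 0.32.

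Markers of other spleen cells moved with experiment 4 too. B cell markers (8 genes, summed) were 45.8 to 142 per M in its co-cultures and 0.948 to 14.9 per M in the other co-cultures, against 0.0395 to 0.236 per M in 4T1 alone; Ighd was at 0 in all libraries of 4T1 alone. Natural killer markers (4 of 8 listed genes in the table, among them Eomes, which 4T1 cells also held) summed to 7.75 to 20.9 per M in co-cultures of experiment 4 and to 5.16 to 8.69 per M in the other co-cultures, against 4.537 to 7.61 per M in 4T1 alone, where Tyrobp was at 0. Myeloid markers (8 of 11 in the table) summed to 9.92 to 16.8 per M in co-culture and 8.42 to 14.8 per M in 4T1 alone, sums made up mostly of Cd14 and Cd68, which 4T1 cells held. Of 4 tested myeloid markers 1 rose, Lyz2, which averaged 1.099 ± 0.942 per M in co-culture and 0.0325 ± 0.0277 per M in 4T1 alone (SD; log2 difference 0.89 ± 0.14, limma adjusted p = 0.000399), and of 2 tested natural killer markers 1 rose, Klrk1 (0.74 ± 0.24, 0.0265). Summed erythroid and platelet markers (5 of 7) were 4.43 to 25.5 per M in co-cultures of experiment 4, 0.332 to 1.25 per M in the other co-cultures and 0.337 to 1.00 per M in 4T1 alone, and of 2 tested 0 passed (2 with a term for the experiment). B cells, natural killer cells and myeloid cells can also carry chains of this receptor, and their part in the rise of the 7 genes was not tested.

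Per kilobase of exon the order of the levels differed between the arms. With the T cell RNA of experiment 4, the median co-culture level per kilobase was 9.71 per M for Il2rg, 7.09 for Il2rb, 6.86 for Cd28, 3.52 for Tnfrsf9, 3.41 for Icos, 1.80 for Il2ra and 0.294 for Cd69. The ranges over the 5 libraries overlapped between each gene and the next in this order down to Il2ra, whereas Cd69 at 0.205 to 0.768 was below the range of Il2ra at 1.42 to 4.05. In 4T1 alone the median per kilobase was 1.11 per M for Il2rg, 0.233 for Tnfrsf9, 0.0419 for Il2rb and 0.0108 for Cd28, and 0 for Il2ra, Icos and Cd69. Il2rg and Tnfrsf9 thus had reads without T cells at levels near those of some co-cultures: in experiment 5 Il2rg had 2.46 to 3.09 per M in co-culture and 1.68 to 2.67 per M in 4T1 alone.

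On single substrates the T cell effect was not resolved. Of 35 tests (7 genes on 5 substrates) 0 passed limma after adjustment over all genes, as did 0% of genes on each substrate, and 12 had an unadjusted p under 0.05. Il2rb was under it on each of the 5 substrates. Its log2 difference between co-culture and 4T1 alone was 2.79 ± 0.84 on fibronectin and 2.49 ± 0.84 on uncoated plastic, and it was 2.36 ± 0.96, 2.35 ± 0.89 and 2.44 ± 0.96 for collagen I, collagen IV and vitronectin. With a term for the experiment 1 of the 35 passed (Il2rb on uncoated plastic, limma adjusted p = 0.0417). edgeR on the recovered reads called 9 of 35, namely Il2ra and Il2rb on uncoated plastic, Il2ra, Il2rb and Cd28 on fibronectin, and these 3 with Icos on collagen IV. With the experiment as a block edgeR called 25 of 35.

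No change with a coat was detected for these genes, with or without T cells. Of 28 tests against uncoated plastic (7 genes, 4 coats) in co-culture 0 passed limma, and of 28 in 4T1 alone 0 passed, nor did any of 28 tests of whether a coat changed the T cell effect; none of these had an unadjusted p under 0.05, and edgeR called 0. Few genes of any kind passed: in co-culture 0.0068% for collagen I, 0.0136% for collagen IV and 0% for fibronectin and vitronectin, in 4T1 alone 0.0952% for collagen I, 0.0068% for collagen IV and 0% for the other coats, and 0% for the change in T cell effect. The largest mean difference within experiments was that of Icos on collagen IV in co-culture, 0.63 ± 0.66 on the log2(value + 1) scale (SD over 3 experiments). In 4T1 alone all 28 such means lay between -0.12 and 0.11. Within experiments, Il2ra was higher on fibronectin than on uncoated plastic in 4 of 4 co-culture pairs, by 0.40 ± 0.17 (SD; 11.6% of all genes were higher in each pair), and on collagen I in 3 of 3, by 0.24 ± 0.10 (18.7% of all genes). On collagen I Cd28 was lower in 3 of 3 pairs, with -0.28 ± 0.21, as was Cd3e with -0.14 ± 0.13 (20% of all genes). Icos was higher on vitronectin in 3 of 3 pairs, by 0.36 ± 0.06 (18.2% of all genes). An exact sign-flip test cannot go below 0.25 with 3 pairs or 0.125 with 4, so such a pattern cannot pass here.

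To set the genes against the amount of T cell RNA, each value was divided by that of Cd3e in the same co-culture. Experiments were compared by permuting wells, and the wells of an experiment share cells. The permutation p-values below thus cover the spread between wells, not the spread between experiments. T cell markers were set beside them: between experiments, 11 markers other than Cd3e differed in log2 ratio by -0.46 to -0.01 (experiment 5 minus 4) and by -0.02 to 0.52 (experiment 2 minus 4) once the matched 4T1-alone value had been subtracted. The 7 genes spread further, from -0.15 to 2.43 (highest Tnfrsf9) and from -0.95 to 2.52 (highest Cd69). Of 509 genes under 0.2 per M in 4T1 alone, 60.7% and 53.4% were called higher in these comparisons. The wider spread is thus not read as particular to the 7 genes.

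The beta chain gave the clearest values. Il2rb relative to Cd3e was 3.69 (collagen I), 1.96 (collagen IV), 2.24 (fibronectin), 2.24 (vitronectin) and 2.05 (uncoated) in experiment 5, against 0.933, 0.815, 0.875, 0.805 and 0.858 on the same substrates in experiment 4. In experiment 2 it was 1.46, 3.23, 1.78, 2.04 and 1.405. Experiments 5 and 2 did not overlap with experiment 4, and the ratio was 2.55-fold higher in experiment 5 and 2.11-fold higher in experiment 2 than in experiment 4 (exact two-sided permutation adjusted p = 0.00805 and 0.00808 over all genes; higher on 5 of 5 substrates each). After subtraction of the 4T1-alone value the log2 differences were 1.17 and 0.95, with exact permutation adjusted p of 0.0112 and 0.0122.

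Il2ra relative to Cd3e was 2.15, 1.36, 0.898, 0.381 and 0.75 in experiment 5 (collagen I, collagen IV, fibronectin, vitronectin and uncoated), against 0.316, 0.226, 0.316, 0.227 and 0.24 in experiment 4. These did not overlap, and the mean was 3.68-fold higher in experiment 5 (exact permutation adjusted p = 0.00805). In experiment 2 the ratio was 0.244, 0.318, 0.326, 0.542 and 0.143, which overlapped with experiment 4 (1.35-fold, exact permutation adjusted p = 0.144). These ratios rest on few reads outside experiment 4: Il2ra had 8 to 244 reads per library in experiment 5 and 6 to 26 in experiment 2. Icos had ratios of 0.25 to 0.905 in experiment 5 and 0.143 to 0.636 in experiment 2, against 0.278 to 0.359 in experiment 4, which overlap, and was 1.79-fold higher in experiment 5 (exact permutation adjusted p = 0.0161) and 1.12-fold in experiment 2 (exact permutation adjusted p = 0.637). The calls in experiment 2 turn with the pseudocount: with 1 in place of 0.1, Icos had 1.92-fold and Il2ra 2.29-fold over experiment 4 (exact permutation adjusted p = 0.00799 each).

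Cd69 set experiment 2 apart. Its ratio to Cd3e was 0.341, 0.318, 0.261, 0.333 and 0.214 in experiment 2 (collagen I, collagen IV, fibronectin, vitronectin and uncoated), against 0.0848, 0.0489, 0.0542, 0.0493 and 0.0395 in experiment 4. All 5 libraries of experiment 2 were above all other co-cultures, which ran from 0 to 0.123, and the mean was 6.30-fold higher than in experiment 4 (exact permutation adjusted p = 0.00808). In experiment 2 these ratios rest on 7 to 16 reads of Cd69 and 22 to 48 of Cd3e per library. Its wells of 4T1 alone held up to 3 reads of Cd69. After their subtraction the ratio was 0.214 to 0.288 in experiment 2 and 0.0395 to 0.0848 in experiment 4. Against experiment 5 the ratio in experiment 2 was 1.98-fold higher, with an exact permutation p of 0.00794, the smallest that 5 against 5 libraries allow, and an adjusted p of 0.108. That fold rests on the pseudocount, being 5.60 with 0.01 and 1.041 with 1. For Cd69 in experiment 5, with 0 reads in 2 of 5 libraries, the pseudocount of 0.1 decides the sign: the difference from experiment 4 was 1.67 in log2 with it and -0.021 with 0.01, and no direction is drawn.

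Cd28 moved the other way. Its ratio to Cd3e was 0.366, 0.864, 0.674, 0.521 and 0.714 in experiment 2 (same order of substrates), against 0.998, 0.941, 1.07, 1.26 and 1.24 in experiment 4. It was lower on 5 of 5 substrates, with a fold of 0.582 (exact permutation adjusted p = 0.00808), and the log2 difference was -0.95 after subtraction of the 4T1-alone value (exact permutation adjusted p = 0.0122). In experiment 5 it was 0.85 to 1.38, and the fold over experiment 4 was 1.06 (exact permutation adjusted p = 0.557), or 1.17 relative to Ptprc, a marker of all leukocytes (exact permutation adjusted p = 0.00803). The ratios of experiment 2 rest on 15 to 31 reads of Cd28 and 22 to 48 of Cd3e per library.

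Il2rg and Tnfrsf9 were higher relative to Cd3e in experiments 5 and 2 before the 4T1-alone value was taken off: Il2rg by 5.21-fold in experiment 5 and 4.78-fold in experiment 2, and Tnfrsf9 by 7.36-fold and 3.81-fold, each over experiment 4 (exact permutation adjusted p = 0.00805 in experiment 5 and 0.00808 in experiment 2). After subtraction Il2rg differed by 0.06 (experiment 5) and -0.23 (experiment 2) in log2, with exact permutation adjusted p of 0.935 and 0.959. Tnfrsf9 kept its difference in experiment 5, with ratios of 0.934 to 2.47 there and 0.194 to 0.275 in experiment 4 (log2 difference 2.43, exact permutation adjusted p = 0.0112), and had -0.52 in experiment 2 (0.289). Genes averaging under 1 per M in 4T1 alone, as Tnfrsf9 did, had median log2 differences before subtraction of 4.45 (experiment 5) and 3.78 (experiment 2). No share called after subtraction is set beside Tnfrsf9, so its difference is not read as particular to it.

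These counts need their background. Of 509 genes tested that averaged under 0.2 per M in 4T1 alone, as 5 of the 7 do, 69.4% were called higher relative to Cd3e in experiment 5 than in experiment 4 and 2.95% lower, and 63.9% higher and 3.93% lower in experiment 2 than in experiment 4; after subtraction the shares were 60.7% and 3.34%, and 53.4% and 4.32%. A call of higher is thus the common case for such genes. Of the 5 genes in this class, 4 were called higher in experiment 5 (Cd69 among them, with no direction drawn) and 2 in experiment 2, which is no result about them, and Cd28 in experiment 2 was called lower. Il2rg and Tnfrsf9 lie outside the class, and these shares are no background for them. Between experiments 5 and 2, 0 of 7 genes passed (exact permutation adjusted p of 0.108 or more; 4 of 7 had an unadjusted p under 0.05), as did 0% of the 509 genes in either direction.

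**Figure D3:**
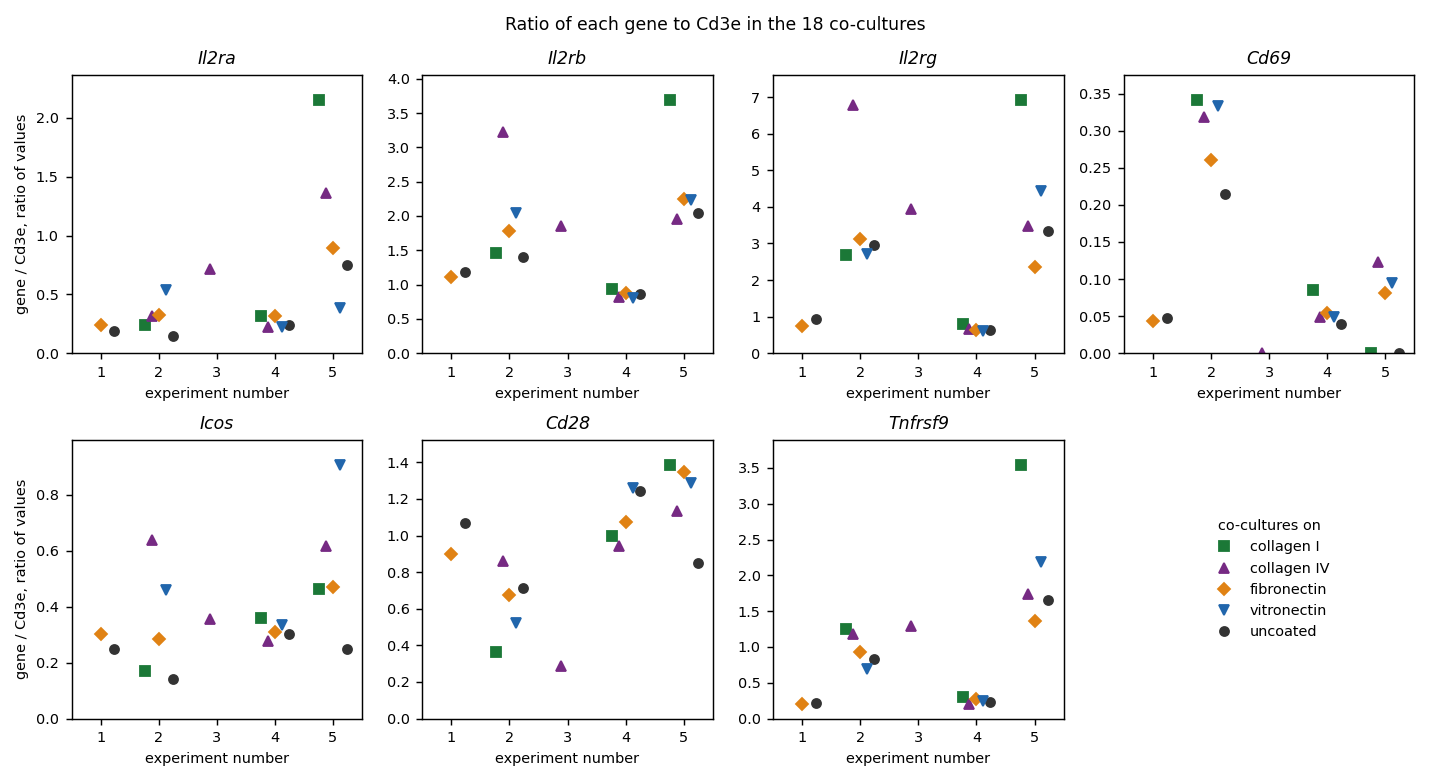
Ratio of each gene to Cd3e in the 18 co-cultures, by experiment number (x axis; y axis linear from 0, 1 point per library, colour and shape by substrate). Il2rb lies above its experiment 4 values in experiments 2 and 5, and Cd69 is highest in experiment 2 (0.214 to 0.341).

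**Figure D4:**
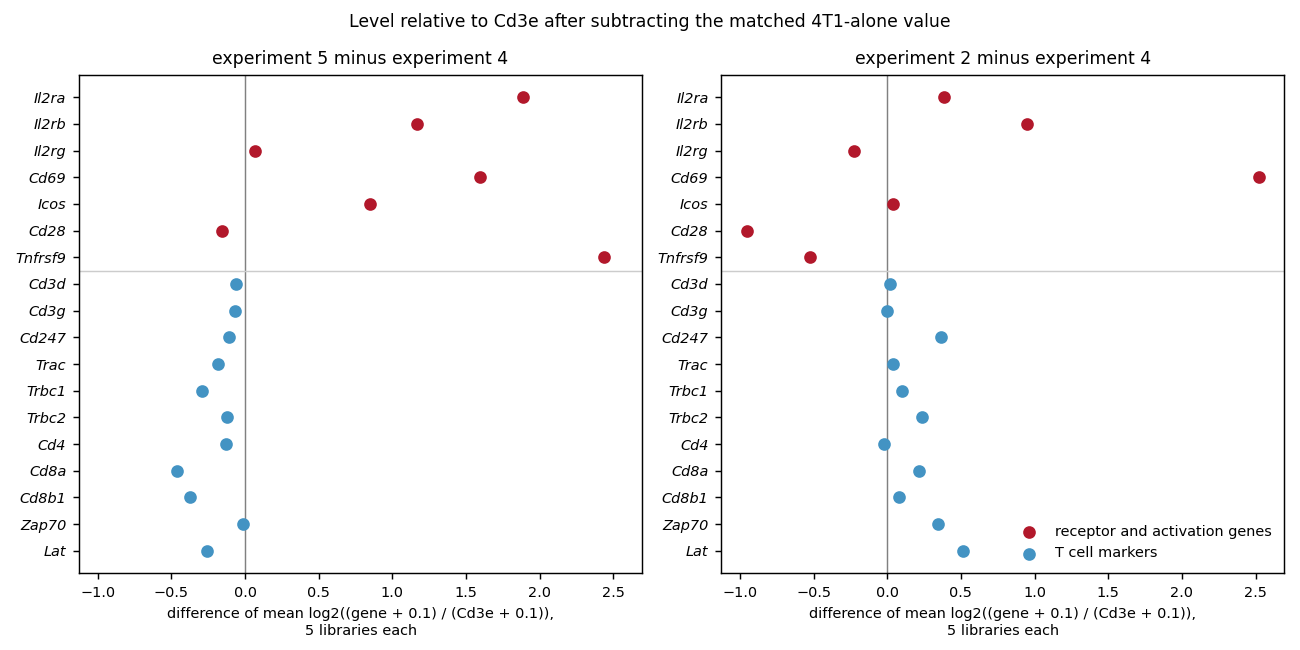
Difference between experiments in mean log2((gene + 0.1) / (Cd3e + 0.1)) after subtracting the matched 4T1-alone value, for experiment 5 minus 4 (left) and experiment 2 minus 4 (right), 5 libraries each, with the 7 genes above and 11 T cell markers below. T cell markers lie between -0.46 and 0.52, and the 7 genes between -0.95 and 2.52; the Cd69 point on the left turns with the pseudocount.

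The labels do not say how the experiments differed, so the T cells, their number and the preparation cannot be told apart between experiments. The part of the B cell markers, which were also highest in experiment 4, was not tested.

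Relative to Cd3e, coats gave only directions. Against uncoated plastic of the same experiment, Il2ra, Il2rb, Icos and Tnfrsf9 were higher on collagen I in 3 of 3 experiments (23% of the 509 genes were higher in every pair, 2.36% lower), with mean log2 differences of 0.30 ± 0.37 (Il2rb) to 0.76 ± 0.49 (Il2ra; SD, n = 3). Cd69 was also higher on collagen I in 3 of 3, by 0.76 ± 0.26 (SD). In experiment 5, however, it had 0 reads on collagen I and on uncoated plastic. Cd3e, the divisor, was itself lower on collagen I in 3 of 3, and had 13 reads on collagen I in experiment 5. On collagen IV, Il2rg and Cd69 were higher in 3 of 3 (23.2% higher, 0.589% lower over the 509 genes, which do not include Il2rg or Tnfrsf9). On fibronectin, Il2ra (0.44 ± 0.31) and Icos (0.40 ± 0.32) were higher in 4 of 4 (4.72% higher, 5.11% lower). On vitronectin, Cd69 (0.58 ± 0.35) and Icos (0.96 ± 0.71) were higher in 3 of 3 (21% higher, 5.3% lower). None of the 28 comparisons could pass, since the exact sign-flip test has a floor of 0.25 or 0.125, and on uncoated plastic Cd69 had 0 reads in experiment 5, so that this pair of it rests on the pseudocount, while Cd3e rested on 20 reads in experiment 5 and 42 in experiment 2.

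**Figure D5:**
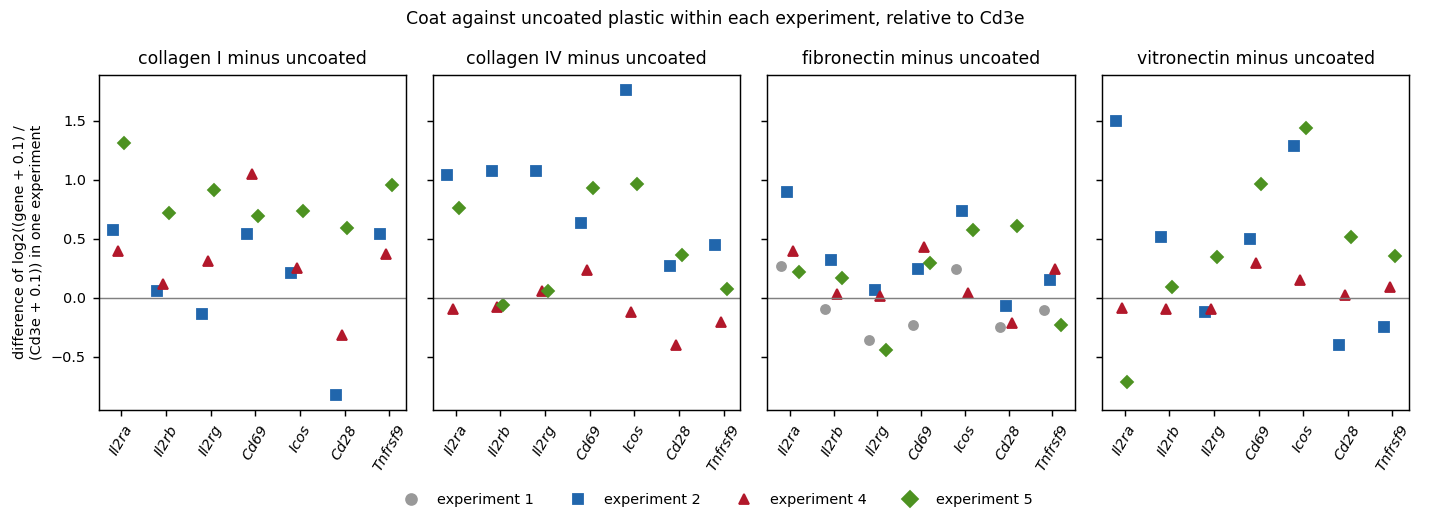
Difference of log2((gene + 0.1) / (Cd3e + 0.1)) between each coat and uncoated plastic in the same experiment (1 point per experiment, marked by colour and shape), for the 7 genes and 4 coats. Il2ra and Icos on fibronectin lie above 0 in 4 of 4 experiments, and Cd28 on collagen I lies on both sides of 0.

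Other genes of the pathway differed in the mean T cell effect. Of 13 tested genes of interleukin 2 receptor signalling 7 rose and 0 fell (median log2 difference 0.26, against -0.01 over all genes). The leading ones were Pik3cd, a phosphoinositide kinase subunit of leukocytes (2.40 ± 0.44, limma adjusted p = 0.00121), and Lck, the kinase that starts antigen receptor signalling (2.32 ± 0.47, 0.00251). Jak1 rose by 0.47 ± 0.14 (limma adjusted p = 0.0195) from a carcinoma level already at 161 per M, and Stat5a by 0.38 ± 0.13 (0.0323). Of 16 tested STAT5 target genes 10 rose and 1 fell. The regulatory T cell factor Foxp3 (1.21 ± 0.28, limma adjusted p = 0.00563), the cytokine genes Lta (0.74 ± 0.21, 0.0155) and Osm (0.63 ± 0.19, 0.0182) and perforin Prf1 (0.67 ± 0.21, 0.0249) led the rise, and Myc fell by 0.25 (SE 0.04, limma adjusted p = 0.000833).

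Of 7 tested cytokines and receptors of the common gamma chain family 2 rose, Il7r (4.13 ± 0.61, limma adjusted p = 0.000174) and Il21r (1.72 ± 0.39, 0.00574). Of 10 tested costimulatory receptors and ligands 7 rose, led by Cd27 (2.03 ± 0.48, limma adjusted p = 0.00652), Cd2 (1.99 ± 0.44, 0.00483), Cd226 (1.23 ± 0.35, 0.0154) and Tnfrsf18 (1.16 ± 0.28, 0.0083). Of the ligands, the gene Tnfsf9, the partner of Tnfrsf9, had -0.07 ± 0.05 (limma adjusted p = 0.278) and Icosl, the partner of Icos, 0.19 ± 0.11 (0.187); this pair was chosen after its values were seen. Of 16 tested genes of the antigen receptor response 6 rose, led by the receptor Cd5 (1.79 ± 0.41, limma adjusted p = 0.00572), Nr4a3 (0.62 ± 0.19, 0.0213) and the transcription factors Irf4 (0.60 ± 0.19, 0.0226) and Batf (0.59 ± 0.18, 0.0225), with a list median of 0.14. All 10 resting and naive T cell genes rose (median 2.29), among them the homing receptor Ccr7 (2.88 ± 0.50, limma adjusted p = 0.000704) and the egress receptor S1pr1 (2.82 ± 0.49, 0.00074), and so did all 12 T cell markers (median 2.58), led by Trbc2 (3.73 ± 0.54, 0.000139). The 7 genes themselves had a median of 1.51. Of these other genes named above as rising, Pik3cd, Lck, Jak1, Stat5a and S1pr1 averaged more than 1 per M in 4T1 alone. The remaining ones stayed under 1 per M there. The share of 72.3% called higher among genes that passed the filter only through the co-cultures applies to these remaining genes too. With a term for the experiment further genes passed: Akt1 and Gab2 (lower, limma adjusted p = 0.00182 and 0.0115) of receptor signalling, Nfil3 (lower, 0.000503) of the STAT5 targets, Il4ra (higher, 0.043) of the gamma chain family, Cd40 (lower, 0.00144) of the costimulatory list and Slc3a2 (lower, 0.00758) of the antigen receptor response.

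Likeness was scored by Pearson's r of log2(value + 1) over the 18 co-cultures, which share T cell content, so high values are the rule for T cell genes. Most like Il2ra were Gimap7 (r = 0.991), P2ry10 (0.99) and Pdcd1 (0.988), and most like Il2rb were Psd4, Ikzf1 and Cd3g (0.998 to 0.999). Cd69 was closest to the interferon-induced genes Irf7 (0.985) and Oas2 (0.981) and to Rgs1 (0.983), and Cd28 to Satb1 (0.997), Selenop and Rassf2. Icos was closest to Smpdl3a, A630023P12Rik and Art2b (0.997 each), Il2rg to Pde1b, Adgrg5 and Gmfg-ps (0.996 to 0.997), and Tnfrsf9 to Ephx1, Gimap7 and Gm8995 (0.991 to 0.993). After a line on log2 Cd3e had been taken off, the residual of Cd69 was most like those of Zfp36 (0.901), Pim1 (0.897) and Dusp2 (0.874), which averaged 30.9, 21.6 and 6.47 per M in co-culture and 22.8, 14.8 and 2.36 per M in 4T1 alone, and that of Icos most like Srgn (0.858). Among the 7 genes residuals were most alike for Il2ra and Tnfrsf9 (r = 0.638) and least for Il2ra and Cd69 (r = -0.316). The slope of log2 level on log2 Cd3e was 1.07 for Cd28, 0.88 for Icos, 0.78 for Il2rb, 0.75 for Il2ra, 0.62 for Cd69, 0.56 for Il2rg and 0.53 for Tnfrsf9 (18 libraries), with Cd28 the 1 gene of the 7 with a slope above 1. The slopes were fitted without subtracting 4T1 alone, where Il2rg and Tnfrsf9 averaged 2.59 and 0.633 per M.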

How the data were processed

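The authors deposited 1 table of normalised gene values, a signal per gene and library, for 40 libraries (18 co-cultures, 22 of 4T1 alone). Per the submitters' processing notes, STAR 2.6, featureCounts, edgeR 3.31.7 and the mm10 build were used. Each deposited value was a whole number of reads over 1 constant per library (100% whole within 0.01), so read counts and scaled library sizes were recovered from the deposited values. Of 21349 lines 21347 genes were kept, and 14701 with at least 1 per M in at least 3 libraries were tested. limma 3.58.1 in R 4.3.3 was fitted to log2(value + 1) over 10 group means with a mean-variance trend (30 residual degrees of freedom), with Benjamini-Hochberg adjustment over all genes tested; edgeR 4.0.16 on recovered read counts was an alternative, and both were tested on simulated data. Ratios used log2((gene + 0.1) / (Cd3e + 0.1)), with exact permutation tests between experiments and sign flips over experiments. The permutation tests between experiments took wells as the unit and cover the spread between wells only. The replicate number in the labels is the experiment: libraries of the same number deviated together (median correlation 0.478 over 156 pairs, against -0.131 over 562 pairs of other numbers; 37 of 40 libraries were closest to their own number), and the lowest pair had 0.0409. The design has no block as its main form. The genes, lists and comparisons were chosen with earlier results of these data known. Named besides the 7 genes were up to 4 passing genes of each list with the largest differences, and the 3 genes most like each of the 7; 1 gene that this rule names is not reported here. Tnfsf9, Icosl, Il2, Ikzf2 and the genes that passed only with a term for the experiment were named after their values were seen.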

Additional observations from a re-analysis of the deposited data

Results flagged for a closer look

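Of 77 sets of 4 or 5 libraries examined for a library apart from the rest, 21 held one. No chance rate is set beside this count. Some of these sets hold only 0 apart from the library flagged, and libraries of experiment 4 recur over genes. In collagen IV co-cultures, experiment 4 stood apart for each of the 7 genes: Il2ra at 23.1 per M (others 0.183 to 1.01), Il2rb at 83.2 (1.37 to 1.85), Il2rg at 67.7 (2.57 to 3.89), Cd69 at 5.00 (0 to 0.183), Icos at 28.4 (0.263 to 0.454), Cd28 at 96.1 (0.211 to 0.838) and Tnfrsf9 at 20.6 (0.678 to 1.29). On uncoated plastic it stood apart for Il2ra at 8.13 per M (0.187 to 1.22), Icos at 10.2 (0.184 to 1.60), Cd28 at 42.0 (0.626 to 6.82) and Tnfrsf9 at 7.84 (1.09 to 1.39), and on fibronectin for Tnfrsf9 at 8.98 (1.08 to 2.02).

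Relative to Cd3e, Il2ra in the uncoated co-culture of experiment 5 had a log2 ratio of -0.36, the others -2.30 to -2.04.

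In 4T1 alone the libraries apart held 1 to 3 reads where the others of their set held 0. Il2ra had 0.0234 per M on collagen I and 0.0228 on collagen IV in experiment 2, and 0.0227 on fibronectin in experiment 1. Cd69 had 0.0703 per M on collagen I and 0.0233 on fibronectin in experiment 2. Icos had 0.0259 per M on collagen I in experiment 3, and 0.0698 on fibronectin and 0.0777 on uncoated plastic in experiment 2.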

How the results depend on the processing

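For the mean effect of T cells, 405 recomputed results kept direction and side of the threshold, and 1 did not, Il2rg without experiment 4 (0.32). Nothing is read from the calls of Il2ra, Il2rb, Cd69, Icos and Cd28, which passed the filter on low values only through the co-cultures. With the experiment as a replicate block 7 of 7 genes passed, and over all genes 3287 were higher and 3439 lower, against 1922 and 1788 without it. Of the 35 single-substrate tests 0 passed in the main form, 1 with the replicate block, 3 with a pseudocount of 0.1, 9 with edgeR, 25 with edgeR and the replicate block and 8 without experiment 4 with the replicate block; leaving out 1 experiment or library gave 0 to 6. Scaling to epithelial genes moved the median of all genes by 0.20 in log2.

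Relative to Cd3e, 300 results between experiments were kept, 9 turned in sign, 5 came to pass and 1 kept its sign but no longer passed (Il2rg, experiment 5 minus 4, at 0.065 with 4T1 alone subtracted). Of those that turned, Cd69 (5 minus 4), Il2rg and Tnfrsf9 (2 minus 4) also lost their calls. A pseudocount of 1 gave -0.020 for Cd28 (experiment 5 minus 4) and -0.049 for Il2rg (5 minus 2), and 0.01 gave -0.021 for Cd69 (5 minus 4) and -0.090 for Icos (2 minus 4). Subtracting 4T1 alone gave -0.15 for Cd28 (5 minus 4), -0.23 for Il2rg and -0.52 for Tnfrsf9 (2 minus 4). Leaving out 1 library gave -0.078 to 0.362 for Icos (2 minus 4) and -0.061 to 0.348 for Il2rg (5 minus 2). Il2ra (2 minus 4) passed with a pseudocount of 1 (1.20), against Ptprc (0.58) and without the uncoated co-culture of experiment 2 (0.63), Icos (2 minus 4) with a pseudocount of 1 (0.94) and Cd28 (5 minus 4) against Ptprc (0.23). The cause was not tested. Depth limits Cd69, Icos and Il2ra outside experiment 4, and Cd28 in experiments 2 and 3.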

Other observations

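Regulatory T cells carry the alpha chain without activation, and their markers were present in the co-cultures. Of 6 marker genes 5 rose with T cells: the factor Foxp3 (1.21 ± 0.28, limma adjusted p = 0.00563), the inhibitory receptor Ctla4 (1.23 ± 0.32, 0.0114), Tnfrsf18 (1.16 ± 0.28, 0.0083), Itgae (0.97 ± 0.24, 0.00946) and Lrrc32 (1.06 ± 0.28, 0.011). These 5 stayed under 1 per M in 4T1 alone. Among genes that passed the filter only through the co-cultures, 72.3% were called higher. Ikzf2 had 0.40 ± 0.16 (limma adjusted p = 0.0603, and 0.0112 with a term for the experiment) and averaged 5.53 ± 3.74 per M in co-culture and 3.51 ± 1.13 per M in 4T1 alone (SD). The 6 genes summed to 36.0 to 103 per M in co-cultures of experiment 4 and 4.21 to 14.4 per M in the other co-cultures, against 2.44 to 6.39 per M in 4T1 alone. Il2 itself, the cytokine gene, averaged 2.16 ± 0.612 per M in co-culture and 1.95 ± 0.431 per M in 4T1 alone (SD; log2 difference 0.08 ± 0.09, limma adjusted p = 0.474).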
